A study of Rattus norvegicus with 4 samples.

Results

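The SLC25 genes encode the mitochondrial carrier family, the proteins that move metabolites, nucleotides, cofactors and ions across the inner mitochondrial membrane. They were followed here in cultured rat cortical neurons given an shRNA against Cmtr1. This gene encodes the enzyme that methylates the ribose of the nucleotide next to the mRNA cap. Members were all genes whose name in the array files starts with Slc25a and for which 2 or more of the 4 arrays showed a probe well above background, each represented by its brightest probe. The files name 41 such genes through 60 probes, and 37 genes were kept, among 30360 genes kept by the same filter. All 37 were well above background on all 4 arrays. The 4 genes not kept were Slc25a21, Slc25a41, Slc25a43 and Slc25a54.

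The shCM1 group was primary neurons infected at day 2 in vitro with a lentivirus carrying an shRNA against Cmtr1, and the shCTL group was the same kind of culture infected with a control shRNA virus, with 2 arrays per group. All cultures came from the cortices of Sprague Dawley embryos of both genders at stage E18.5 and were harvested at day 7. The series records 2 independent experiments, with 1 shRNA named per group. Effects of lower Cmtr1 and other effects of that shRNA therefore cannot be told apart. Slide 1 carried the first replicate of each group and slide 2 the other, so slide, scan and replicate cannot be told apart.

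A level below is the log2 signal of a probe relative to the 75th percentile of its array, and a difference is shCM1 minus shCTL on that scale, with the standard error (SE) of the limma fit without a block. Signals depend on the probe as well as on the transcript, so the order of levels between genes describes probe brightness and not the amount of transcript, and a ratio of 2 probes is used only for its change between groups. On each array 84.0% to 90.4% of probes were well above background and no gene spot was saturated. Cmtr1 RNA itself was at 27.7% of its shCTL level, and the protein was not measured on these arrays. Without a block Cmtr1 did not pass the limma fit, and with the slide as a block it did (adjusted p = 1.44e-07). The same filter on background kept all 11 neuronal markers, among them Stmn2, Dcx and Tubb3, and also all 15 astrocyte markers, 12 of 13 microglial markers and all 10 markers of the oligodendrocyte lineage. That filter kept 30360 of 34231 genes, so a kept marker does not by itself show that a cell type was present. In RNA from a culture that may hold several cell types, fewer cells of a type and less RNA per cell cannot be told apart.

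Some members carry ADP, ATP and phosphate for oxidative phosphorylation, and others exchange aspartate and glutamate for the malate-aspartate shuttle. Further branches bring in glutathione, coenzyme A, folate, thiamine pyrophosphate, iron, carnitine and basic amino acids. Glutamate itself enters mitochondria with a proton through a pair of closely related carriers, Slc25a18 and Slc25a22. In mouse brain Slc25a18 is known as a gene of astrocytes, while Slc25a22 is also used by neurons.

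Slc25a18 and Slc25a39 were lower and Slc25a29 was higher by both of their probes. The sequences of the further probe of each are shown because these 3 results were read at more than 1 stretch of the transcript. They are given 5′ to 3′, all in lower case, as the array files list them, with coordinates of rat build rn4.

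Slc25a18, chr4:157193896-157194081, plus strand, where the 60 bases spread over 186 bases of the genome: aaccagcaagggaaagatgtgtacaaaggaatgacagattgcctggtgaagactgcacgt
Slc25a39, chr10:91510851-91510879, minus strand, where the listed coordinates cover 29 of the 60 bases: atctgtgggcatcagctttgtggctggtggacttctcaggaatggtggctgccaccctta
Slc25a29, chr6:133168341-133168400, minus strand, contiguous in the genome: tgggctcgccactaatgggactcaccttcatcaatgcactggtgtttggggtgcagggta

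Each of these sequences has at least 2 reading frames without a stop codon. The brightest probes of the same genes lie at chr4:157202457-157202516, chr10:91511414-91511552 and chr6:133167365-133167424.

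Among the glutamate and aspartate carriers, Slc25a18 stood at a level of -1.26 and -0.49 in shCM1 replicates 1 and 2, against 0.42 and 1.05 in shCTL replicates 1 and 2. Both shCM1 arrays were below both shCTL arrays, and slide 2 was the higher slide in each group. Its difference was -1.61 (SE 0.34, n = 2 arrays per group), which is 32.8% of the shCTL level, with -1.68 and -1.54 within slides 1 and 2. It fell in the limma fit blocked on slide (adjusted p = 2.32e-08), and the adjusted p of the unblocked fit was 1.00. The call was lost in a blocked limma fit without the intensity trend (adjusted p = 0.2544), in which 0 genes were called, and in the other blocked scalings the adjusted p ran from 1.37e-05 to 3.49e-04. The further probe of Slc25a18, whose sequence is given above, was far dimmer, with levels of -4.70 and -3.88 in shCM1 and -3.38 and -2.90 in shCTL. Its differences within the slides were -1.32 and -0.98, a mean of -1.15. The mean was -1.33 after quantile normalization of the processed signal. It was -0.57 with normexp background correction, an added offset of 50 and quantile normalization. That offset is of similar size to the processed signals of this probe, 23.0 to 101.2.

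Slc25a22, the other glutamate carrier, had levels of 3.27 and 2.84 in shCM1 and of 3.30 and 2.95 in shCTL. The groups overlapped, and the slides were further apart than the groups. Its difference was -0.07 (SE 0.22), with -0.03 and -0.11 within the slides, and it did not pass with the block (limma, adjusted p = 0.660). Its sign turned to 0.0012 after quantile normalization and to 0.0015 with normexp and in the authors' value table. The array has 1 probe for this gene, at chr1:201617709-201617768 on the minus strand.

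The ratio of the Slc25a18 probe to the Slc25a22 probe was therefore not the same in both groups of arrays. As a log2 ratio it was -4.54 and -3.32 in shCM1, against -2.89 and -1.90 in shCTL. The change in this ratio was -1.54, with -1.65 within slide 1 and -1.42 within slide 2. Its SE of 0.78 comes from the pooled spread of the 2 arrays per group and not from limma. The exact two-sided permutation test over arrays gave p = 0.33, the smallest that 2 arrays against 2 allow. The change was -0.93 without shCM1 replicate 1, and -1.31 when all probes of a gene were averaged.

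The aspartate/glutamate exchangers of the malate-aspartate shuttle did not pass. Slc25a12 (aralar, the form of brain) had levels of 4.20 and 4.10 in shCM1 and of 4.48 and 4.30 in shCTL, so the groups did not overlap. Its difference was -0.24 (SE 0.14), with -0.28 and -0.20 within the slides (limma with the block, adjusted p = 0.0760). Slc25a13 (citrin, the form best known from liver) was dim, at -4.19 and -3.69 in shCM1 and -4.41 and -4.03 in shCTL, and the groups overlapped. Its difference of 0.28 (SE 0.30) was 0.09 after quantile normalization.

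**Figure D1:**
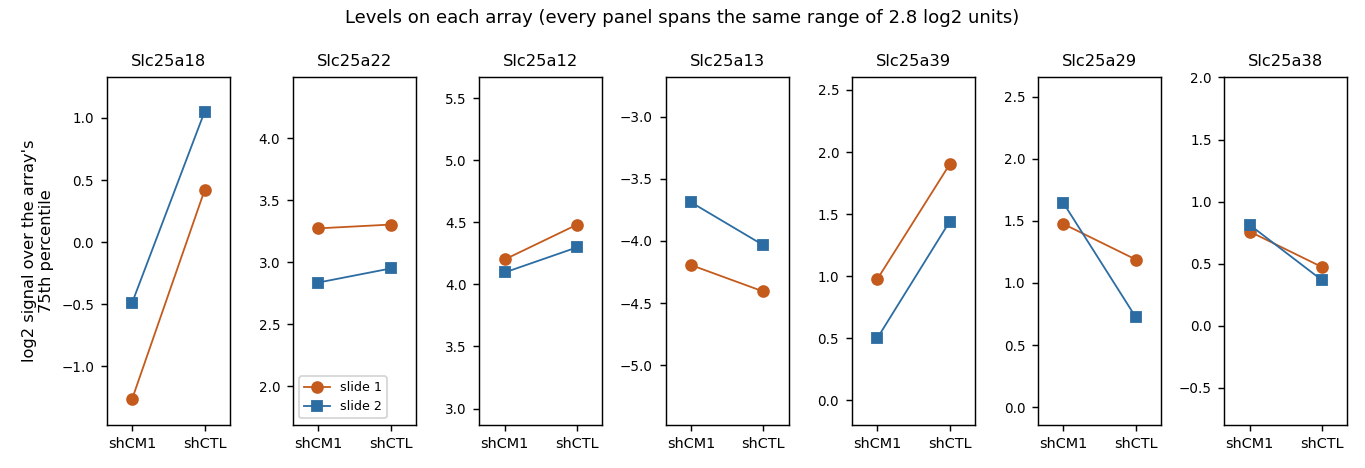
Level of 7 SLC25 genes on each of the 4 arrays, as log2 signal over the array's 75th percentile, with lines joining arrays of 1 slide and every panel spanning the same range. Within slides 1 and 2, shCM1 minus shCTL is -1.68 and -1.54 for Slc25a18, -0.93 and -0.94 for Slc25a39 and -0.03 and -0.11 for Slc25a22.

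Slc25a39, the carrier needed for import of glutathione into mitochondria, was the other member that was lower by a wide margin. Its levels were 0.97 and 0.50 in shCM1, against 1.90 and 1.44 in shCTL. Both shCM1 arrays were below both shCTL arrays, and here slide 1 was the higher slide in each group. The difference was -0.93 (SE 0.25), or 52.4% of the shCTL level, and the slides gave -0.93 and -0.94. It fell in the blocked limma fit (adjusted p = 4.67e-06, against 1.00 in the unblocked fit), and not without the intensity trend (blocked limma, adjusted p = 0.2544). The further probe had -0.88 and -0.86 within the slides, a mean of -0.87.

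The 7 other measured carriers of cofactors, nucleotides and glutathione ran from 0.00 for Slc25a42, a coenzyme A carrier, to 0.26 for Slc25a32, a folate carrier. None of these 7 passed with the block. Slc25a42 was 1 of 14 genes with more than 1 measured probe, and the only one whose probes were more than 1.5-fold apart. Its bright probe had 0.00 and its dim probe 0.70, and the dim probe had 0.19 with normexp.

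Carriers of carnitine, ornithine and other amino acids had a median of 0.28 over 9 genes, beside 0.08 over all genes. The median was 0.14 after quantile normalization and 0.088 with normexp. In this group 7 were higher and 1 lower within both slides, beside 44.0% and 22.6% of all genes, and 2 were called higher with the block, beside 3.69%. Slc25a29, a carrier of basic amino acids, had levels of 1.48 and 1.64 in shCM1, against 1.19 and 0.72 in shCTL. The shCM1 arrays were above the shCTL arrays without overlap, but the slides differed in size, with 0.29 on slide 1 and 0.92 on slide 2. Its difference was 0.60 (SE 0.21), 1.52-fold, and it rose in the blocked limma fit (adjusted p = 0.00396, against 1.00 in the unblocked fit and 0.2784 in the blocked fit without the trend). Without shCTL replicate 2 the difference was 0.37, and in the authors' value table its adjusted limma p with the block was 0.0550. The further probe of Slc25a29 had 0.14 and 0.99 within the slides.

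Slc25a38, known in human and yeast as a glycine carrier for haem synthesis, had levels of 0.76 and 0.81 in shCM1, against 0.47 and 0.37 in shCTL. The groups did not overlap. The difference was 0.37 (SE 0.16), with 0.29 and 0.45 within the slides, and it rose in the blocked limma fit with an adjusted p of 0.0362. That call was lost after quantile normalization (limma with the block, adjusted p = 0.0770), cyclic loess (0.0882) and normexp (0.101) and in the authors' table (0.0981), and without the intensity trend (0.2793), while the difference stayed between 0.32 and 0.38. The array has 1 probe for this gene.

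The carriers of ADP, ATP and phosphate included the probes with the highest signal. Slc25a4, an ADP/ATP carrier of heart, muscle and brain, had levels of 5.87 and 5.64 in shCM1 and 5.93 and 5.73 in shCTL. Slc25a3, the phosphate carrier, had 5.72 and 5.47 in shCM1 and 5.78 and 5.57 in shCTL. In both genes the groups overlapped and the slides were further apart than the groups. Slc25a4 had a difference of -0.07 (SE 0.15) and Slc25a3 of -0.08 (SE 0.15), and both signs turned after cyclic loess, at 0.019 and 0.0084. Slc25a5, the widely expressed ADP/ATP carrier, had -0.10 (SE 0.13), and its other 2 probes had -0.12 and -0.08. Copies of Slc25a5 elsewhere in the genome are nearly identical, so its signal may be shared with them.

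The calcium-regulated ATP-Mg/phosphate carriers did not pass either. Slc25a24 had levels of -1.03 and -0.64 in shCM1 and -1.11 and -0.88 in shCTL, with overlap, and a difference of 0.16 (SE 0.21). Slc25a25 had -0.03 and 0.37 within the slides by its bright probe, and its dim probe had 0.57 and 0.57, or 0.22 on average with normexp. Slc25a23 had 0.02 (SE 0.20), which turned to -0.13 after quantile normalization. No member of this group of 6 measured genes passed the blocked fit.

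Among the carriers of dicarboxylates and tricarboxylates, Slc25a1, which exports citrate for lipid synthesis, had levels of 1.33 and 1.16 in shCM1 and of 1.13 and 0.76 in shCTL. The groups did not overlap. Its difference was 0.30 (SE 0.19), with 0.20 and 0.40 within the slides (limma with the block, adjusted p = 0.0785). In the other scalings the Slc25a1 difference was 0.31 to 0.33, with an adjusted p of 0.116 to 0.149 (limma with the block). The dicarboxylate carrier Slc25a10 had -0.22 (SE 0.19) and the oxoglutarate carrier Slc25a11 -0.04 (SE 0.31). Slc25a11 turned to 0.02 after quantile normalization.

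Carriers related to the uncoupling proteins did not pass. Slc25a14, which is known from brain, had -0.17 (SE 0.13), which turned to 0.0069 with normexp. Slc25a27, also known from brain, had 0.02 (SE 0.45). Slc25a27 differed more between slides than any other member, with levels of 2.65 and 3.68 in shCM1 and 2.65 and 3.64 in shCTL, yet within the slides its differences were 0.00 and 0.03. Slc25a30 was dim, at -4.64 and -4.04 in shCM1 against -4.88 and -4.65 in shCTL. Its difference of 0.43 (SE 0.32) was 0.11 with normexp.

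The iron carriers, or mitoferrins, did not pass. Slc25a28 had levels of 1.30 and 1.52 in shCM1 and 1.14 and 1.47 in shCTL, with overlap and a difference of 0.11 (SE 0.19). Slc25a37, the form known from red cell precursors, had 0.44 (SE 0.32), with 0.84 on slide 1 and 0.04 on slide 2. Slc25a46, an outer membrane protein of the family with a part in mitochondrial fission, had levels of -0.39 and -0.36 in shCM1 and -0.46 and -0.40 in shCTL, and a difference of 0.05 (SE 0.16) that turned to -0.0061 with normexp.

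**Figure D2:**
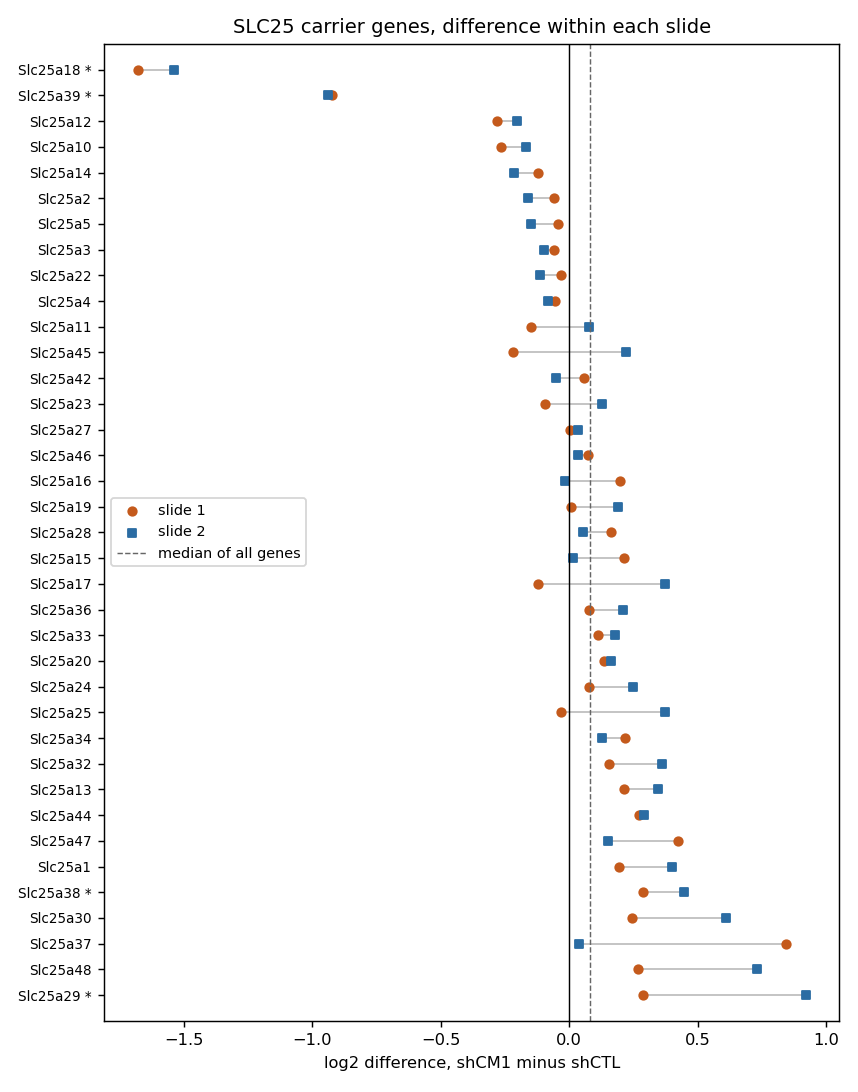
Difference (shCM1 minus shCTL, log2) of the 37 SLC25 genes within slide 1 (circles) and slide 2 (squares), ordered by their mean, with an asterisk where the slide-blocked limma fit gave an adjusted p under 0.05. Slc25a18 and Slc25a39 stand apart at the low end, and the other 35 genes lie between -0.24 and 0.60 on average; the dashed line is the median of all genes, 0.08.

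Over the family, limma without a block called 0 of 37 members and 0 of 30360 genes (0.0% of genes in each direction), with 3 members and 910 genes at an unadjusted p under 0.05. The 3 members were Slc25a18, Slc25a39 and Slc25a29. Blocking on slide, limma called 2 members higher, beside 3.69% of all genes, and 2 lower, beside 3.03% (6.72% of genes in either direction). These are 5.41% of members in each direction, a share near that of genes in general. Of all genes 1121 were called higher and 920 lower, and after quantile normalization 365 were higher and 579 lower. Slc25a18 and Slc25a39 were lower by 1.5-fold or more on slide 1 and again on slide 2, and 0 members were higher by as much on both, so that 2 members were lower and 0 higher, beside 0.619% and 1.79% of all genes (2.41% in either direction). Within both slides 20 members were higher and 10 lower, beside 44.0% and 22.6% of all genes (66.5% in either direction). The groups of arrays did not overlap for 12 members that were higher and 6 that were lower in shCM1, beside 21.6% and 10.1% of all genes (31.6% in either direction).

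The median difference of the members was 0.11 (0.07 and 0.13 within slides 1 and 2), beside 0.08 for all genes (0.09 and 0.06). After quantile normalization the medians were 0.09 for members and 0.0074 for all genes. Across members, the differences of the 2 slides correlated at 0.80 (Pearson, 37 genes, which share arrays and are not independent). Without Slc25a18 and Slc25a39 this was 0.41, and over all genes it was 0.36. For 19 of 37 members the gap between the slides was larger than the gap between the groups.

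The dimmest members moved most with normexp, a setting that also held an added offset of 50 and quantile normalization. Slc25a48, Slc25a30, Slc25a47, Slc25a37 and Slc25a13 all had mean levels below -4, and their differences were 0.50, 0.43, 0.29, 0.44 and 0.28. After quantile normalization alone these were 0.27, 0.21, 0.05, 0.22 and 0.09. With normexp they were 0.07, 0.11, -0.02, 0.09 and 0.06. None of the 5 passed with the block. In 5 scalings of the data 22 members were higher each time and 5 were lower each time, namely Slc25a18, Slc25a39, Slc25a12, Slc25a10 and Slc25a2. The other 10 changed sign.

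**Figure D3:**
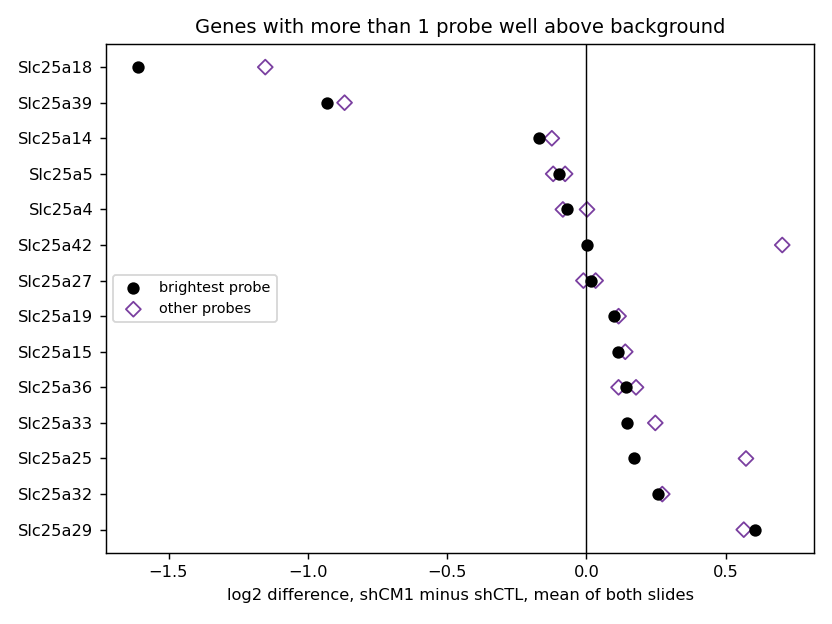
Difference (shCM1 minus shCTL, log2, mean of both slides) of each probe of the 14 SLC25 genes with more than 1 probe well above background, with filled circles for the brightest probe and open diamonds for the others. In 12 of 14 genes all probes have the same sign, and Slc25a42 is the gene whose probes are furthest apart, at 0.00 and 0.70.

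Genes around mitochondrial glutamate were set beside the carriers. Glud1, glutamate dehydrogenase, had levels of 4.61 and 4.87 in shCM1, against 4.89 and 5.08 in shCTL, so the groups did not overlap. Its difference was -0.25 (SE 0.16), with -0.29 and -0.22 within the slides (limma with the block, adjusted p = 0.0577). The mitochondrial aspartate aminotransferase Got2 had -0.03 (SE 0.16), its cytosolic counterpart Got1 0.18 (SE 0.15) and ornithine aminotransferase, Oat, 0.15 (SE 0.13). None of these 4 passed, and for Got1 and Oat the shCM1 arrays were above the shCTL arrays without overlap. Of all genes, 21.6% were higher and 10.1% lower in shCM1 without overlap. For Mdh1, Mdh2, Gls2, Gpt2, Prodh and Aldh18a1 the groups overlapped.

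Of 8 genes of glutamate uptake and glutamine synthesis, none passed the blocked fit (limma), and the median was 0.14. The astroglial uptake carriers Slc1a3 and Slc1a2 had 0.13 (SE 0.14) and 0.11 (SE 0.19), and glutamine synthetase, Glul, had 0.05 (SE 0.39). Of 14 other genes of mitochondrial membrane transport, among them the pyruvate carriers Mpc1 and Mpc2 and the porin Vdac1, none passed, and the median was 0.01. Of the family members that carry other names, Ucp2 had 0.50 (SE 0.23), Ucp1 0.32 (SE 0.24), Mtch1 -0.03 (SE 0.26) and Mtch2 -0.03 (SE 0.12), and none of these 4 passed.

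Since Slc25a18 is a gene of astrocytes in mouse brain, the astrocyte markers are given beside it. Of 15 markers 0 passed the blocked limma fit in either direction, and the groups of arrays overlapped for all 15. Their median difference was -0.01 (0.09 and -0.05 within the slides). Their summed level, the log2 of the sum of linear levels, was 7.91 and 8.07 in shCM1, against 7.75 and 8.08 in shCTL. The brightest probes weigh most in such a sum. Aldh1l1 had -0.28 (SE 0.38), Aqp4 -0.12 (SE 0.22) and Gfap -0.03 (SE 0.54), while Gjb6 had 0.28 (SE 0.27), Ndrg2 0.25 (SE 0.49) and Gja1 0.11 (SE 0.27). The summed level was higher on slide 2 in both groups, as Slc25a18 was. Microglial markers were higher in shCM1, with 6 of 12 called higher and 0 lower, beside 3.69% and 3.03% of all genes, and a summed level of 1.94 and 1.47 in shCM1, against 1.37 and 1.06 in shCTL. Of 8 fibroblast and vessel markers 2 were called higher, Dcn at 0.86 and Col1a2 at 0.54, and 0 lower, with a median of 0.41 and a summed level of 0.83 and 1.09 in shCM1, against 0.65 and 0.69 in shCTL. The part of these cells in the difference of any carrier was not tested.

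**Figure D4:**
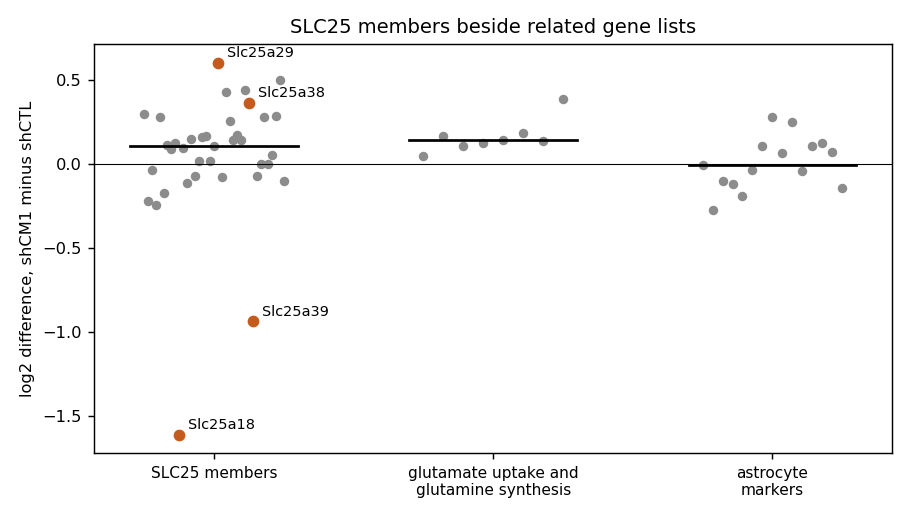
Difference (shCM1 minus shCTL, log2, mean of both slides) of the 37 SLC25 genes, 8 genes of glutamate uptake and glutamine synthesis and 15 astrocyte markers, with each list's median as a bar and genes called in the blocked limma fit named. Slc25a18 and Slc25a39 lie at -1.61 and -0.93, and the 15 astrocyte markers lie between -0.28 and 0.28.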

How the data were processed

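Total RNA was amplified, labelled with Cy3 and hybridised to Agilent arrays with 1 colour, per the labels' protocols. The deposited scanner files give linear spot intensity before any normalization between arrays; their headers name Feature Extraction 10.7.3.1, and build rn4. The authors' value table also holds linear intensity, as deposited, by a step not given in the sources used here, and served as an alternative.

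Outlier spots were left out, spots of a probe averaged, and log2 taken of the processed signal minus the array's 75th percentile. Genes were named through RefSeq's table of assembly GRCr8, by accession for 18917 probes, by symbol for 2989 and by older symbol for 203, and 18843 kept the file's name. SLC25 genes kept the names of the files. Groups were compared over all genes with limma 3.58.1 in R 4.3.3 (intensity trend, Benjamini-Hochberg, threshold 0.05, two-sided), unblocked and blocked on slide. Same-numbered arrays deviated together (correlation 0.713), and the slide comes from the file headers. The blocked fit had 18.61 prior degrees of freedom, drawn from the spread of all genes. The fits were also run on simulated data with the same residual spread for every gene and a slide effect shared by both groups. These data need not follow that setting, so no support is drawn from it. For arrays, their number limits the precision. The p-values measure only the spread between these arrays, since nothing beyond the mention of 2 experiments says that cultures were separate. In the blocked fit that spread was largely pooled over all genes and not the spread of the single gene. The shRNA sequences are not given in the sources used here. A list of enzymes is not reported here as a list. Members, lists and the naming rule were chosen with earlier results of these data known. Values per array are given for the glutamate and aspartate carriers, the 3 brightest members, the member of each role group with the largest difference by its smaller within-slide value, those past a fit and those at least 1.5-fold apart in both slides.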

Additional observations from a re-analysis of the deposited data

How the results depend on the processing

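The calls rest on the slide as a block. Without it no setting called a member, and leaving out each array in turn called 0 members and 0 to 1 of all genes. With the replicate block 4 members and 2041 genes were called. Blocked counts were 2 and 683 in the authors' table, 3 and 944 by quantile, 3 and 737 by cyclic loess, 3 and 984 by normexp, and 4 and 1467 for the mean over probes, which was chosen after seeing the data. Calls higher and lower were 248 and 435, 365 and 579, 273 and 464, and 400 and 584 in the first 4 of these. The block without the intensity trend called 0 members and 0 genes, with 5099 genes at an unadjusted p under 0.05. Slc25a18 and Slc25a39 were called in every blocked setting with the trend. The members' median was 0.066 with normexp. The change of Slc25a18 minus that of Slc25a22 was -1.31 with the mean over probes and -2.14 to -0.93 with an array left out. With an array left out Slc25a18 ran from -1.997 to -1.22, Slc25a39 from -1.17 to -0.69, Slc25a29 from 0.37 to 0.84 and Slc25a38 from 0.31 to 0.42, with no change of sign. Signs turned for members near 0: Slc25a22 was 0.0012 after quantile normalization and 0.0015 with normexp and in the authors' table, Slc25a3 0.0084 and Slc25a4 0.0186 after cyclic loess, and Slc25a46 -0.0061 with normexp, the same with or without the block. With an array left out Slc25a22 ran from -0.29 to 0.15, Slc25a24 from -0.036 to 0.36, Slc25a28 from -0.056 to 0.27, Slc25a3 from -0.20 to 0.047 and Slc25a4 from -0.18 to 0.045. The cause of these changes was not tested.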

Other observations

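Several probes for SLC25 sequences carry other names in the files and so are no members. Mcart1, which RefSeq now calls Slc25a51 and which is known as the mitochondrial carrier of NAD, had 5 probes with differences from -0.18 to 0.01. A probe described as similar to Slc25a26, the carrier of the methyl donor S-adenosylmethionine, had levels of -2.31 and -2.60 in shCM1 and -2.15 and -2.58 in shCTL, a difference of -0.09. A probe described as Slc25a21, an oxodicarboxylate carrier whose probe of that name was not kept, had levels of -3.52 and -3.38 in shCM1 and -3.87 and -3.31 in shCTL, a difference of 0.14, with 0.35 and -0.06 within the slides. A transcript probe described as Slc25a30 had 0.02, against 0.43 for the dimmer probe named Slc25a30.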
